A study of Mus musculus with 9 samples.

Results

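The 9 genes described here are the suppressors of cytokine signalling *Socs1*, *Socs2*, *Socs3* and *Cish*, the Janus kinases *Jak1*, *Jak2* and *Tyk2*, and the transcription factors *Stat3* and *Stat6*. They were chosen by name as the inhibitors, kinases and signal transducers of one pathway, and they are 9 of the 54838 genes in the deposited tables. A total of 8 of them reached 1 FPKM in at least 2 libraries and entered the test across 12702 genes, while *Socs1* did not. FPKM are fragments scaled to transcript length and to the number of mapped fragments, so levels of different genes can be set side by side.

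The libraries came from small intestinal organoids of *Vil-CreERT2*;*Mettl3* fl/fl mice on a C57BL/6 background, from donors of 2 to 4 months. Organoids are crypt-derived epithelial cultures, and the *Vil* promoter restricts the tamoxifen-inducible Cre to intestinal epithelium. All groups carried both the floxed *Mettl3* allele and the Cre, and they differed in what was added to the medium. EtOH DMSO received ethanol and DMSO, EtOH Nec-1 ethanol and Necrostatin-1, 4-OHT DMSO 4-hydroxytamoxifen and DMSO, and 4-OHT Nec-1 4-hydroxytamoxifen and Necrostatin-1. The ethanol or 500 nM 4-OHT lasted 2 days and the DMSO or inhibitor 5 days, with Nec-1 stated as 5 µM in a legend and as 10 µM in the methods. No group had 4-OHT without Cre, so Cre activity, 4-OHT and loss of *Mettl3* cannot be told apart. Nec-1 inhibits the kinase RIPK1, and *Mettl3* encodes the methyltransferase that writes m6A onto mRNA. The first 3 of these groups had 2 libraries each, 7 in all with the single one of 4-OHT Nec-1.

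The cytokine receptors of this pathway have no kinase activity of their own, and Janus kinases bound to their tails phosphorylate both the receptor and STAT proteins once a ligand has bound. Phosphorylated STATs enter the nucleus and switch on genes that include the SOCS family, whose products block the kinase or the receptor and recruit a ubiquitin ligase through the SOCS box. In the intestinal epithelium STAT3 acts downstream of IL-22 and IL-6 in repair and in antimicrobial gene expression, and STAT6 acts downstream of IL-4 and IL-13.

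*Mettl3* (ENSMUSG00000022160) gave no sign of loss at the mRNA level, being higher and not lower where the label says 4-OHT. It was 2.70 and 2.71 FPKM under EtOH DMSO, 2.41 and 2.47 under EtOH Nec-1, 3.72 and 4.14 under 4-OHT DMSO and 3.36 under 4-OHT Nec-1, and limma with Benjamini-Hochberg adjustment gave a log2 fold change of 0.41 between 4-OHT DMSO and EtOH DMSO (adjusted p = 0.0231). It was between 0.25 and 0.52 in all 17 fits and passed in 9 of them, not with either scaling. These values cover the whole gene and cannot show an excised exon, so each direction below rests on the labels. FPKM summed to 450207 to 498712 per library, and since fragment counts were not used, depth per gene is unknown. Epithelial markers summed to 2439 to 3530 FPKM, all 4 endothelial markers were below 1 FPKM in every library, and so were 7 of 8 stromal and 5 of 8 immune markers. Immune markers summed to between 3.44 FPKM in EtOH DMSO and 10.3 FPKM in 4-OHT Nec-1, with *Cd68* the highest single one at 7.72 FPKM, while *Ptprc* did not exceed 0.050 FPKM. All 6 Paneth cell markers rose in 4-OHT DMSO and 3 of 5 stem cell markers fell by limma with Benjamini-Hochberg adjustment, where 24.5% of all genes were called higher and 16.7% lower. Of those that fell, *Lgr5* passed the filter only through the EtOH DMSO libraries. Of 4 tested enterocyte markers, *Sis* and *Alpi* fell by 1.37 and 1.53 on the log2 scale and *Apoa1* rose by 0.61. The part of these shifts in the results below was not tested. In bulk RNA, fewer cells of a type and less RNA per cell cannot be told apart. Mitochondrial genes took 14.5% to 19.9% of the FPKM sum, with the highest shares in the 3 Nec-1 libraries.

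Gene positions below and start-site sequences are those of RefSeq on GRCm38.p6. Windows of 300 bases were found for 8 of the 9 genes, with 250 bases before and 50 after the start. The inhibitor *Socs2* had no window and was not searched. They were searched on both strands for TTCNNNGAA, the palindrome bound by STAT dimers, and for the core of the interferon-stimulated response element, GAAA followed after 2 bases of any kind by a second GAAA. TTCNNNGAA occurred in 8.3% of 32851 windows and the interferon-stimulated core in 3.44%. *Socs1*, *Socs3* and *Cish*, all of them known as STAT-induced feedback inhibitors, held 1 or 2 matches each, and the other 5 windows held neither. The *Socs1* stretch (chr16:10785517-10785786, minus strand) has 2 overlapping copies of that core, beginning 83 and 77 bases before the start. At least 2 copies were present in 0.225% of windows. The *Cish* stretch (chr9:107296409-107296678, plus strand) has TTCNNNGAA at the annotated start and again 11 bases after it, and 0.457% of windows held at least 2. For *Socs3* the match lies 154 bases before the annotated start, which itself is 970 bases inside the outer end of the gene, and is shown with 10 bases on each side (chr11:117969502-117969530, minus strand). Capitals mark the matches, and a match is a description of the letters and not a measured binding site.
Socs1: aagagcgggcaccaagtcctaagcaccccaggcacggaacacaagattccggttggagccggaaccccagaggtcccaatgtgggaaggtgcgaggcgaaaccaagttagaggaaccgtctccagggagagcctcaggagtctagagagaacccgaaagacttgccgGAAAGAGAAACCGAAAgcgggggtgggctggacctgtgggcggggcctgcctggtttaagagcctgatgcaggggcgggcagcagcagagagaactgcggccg
Cish: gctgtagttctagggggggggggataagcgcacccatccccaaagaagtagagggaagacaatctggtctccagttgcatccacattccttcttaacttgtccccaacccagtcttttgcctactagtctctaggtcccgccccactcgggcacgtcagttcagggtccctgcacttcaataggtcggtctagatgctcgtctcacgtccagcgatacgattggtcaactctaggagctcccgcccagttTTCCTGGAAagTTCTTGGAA
Socs3: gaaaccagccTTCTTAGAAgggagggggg

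Across the set, the inhibitors other than *Socs2* had the lowest levels. *Stat6* was the highest, with a median of 31.0 FPKM over the 7 libraries (28.2 to 34.5), and was followed by *Jak2* at 19.7, *Jak1* at 11.8, *Socs2* at 7.91, *Stat3* at 6.24, *Tyk2* at 5.56, *Socs3* at 3.50, *Cish* at 1.16 and *Socs1* at 0.117. The ranges of *Socs2* and *Stat3* overlapped, as did those of *Stat3* and *Tyk2* and those of *Cish* and *Socs1*, so those neighbours were not separated. The ranges of the other 5 neighbouring pairs did not overlap. The spread over libraries was smallest for *Jak1*, with a highest value 1.18 times the lowest, and for *Stat6* at 1.22 times. It was widest for *Socs1* at 36.4 times and *Cish* at 2.41 times.

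**Figure D1:**
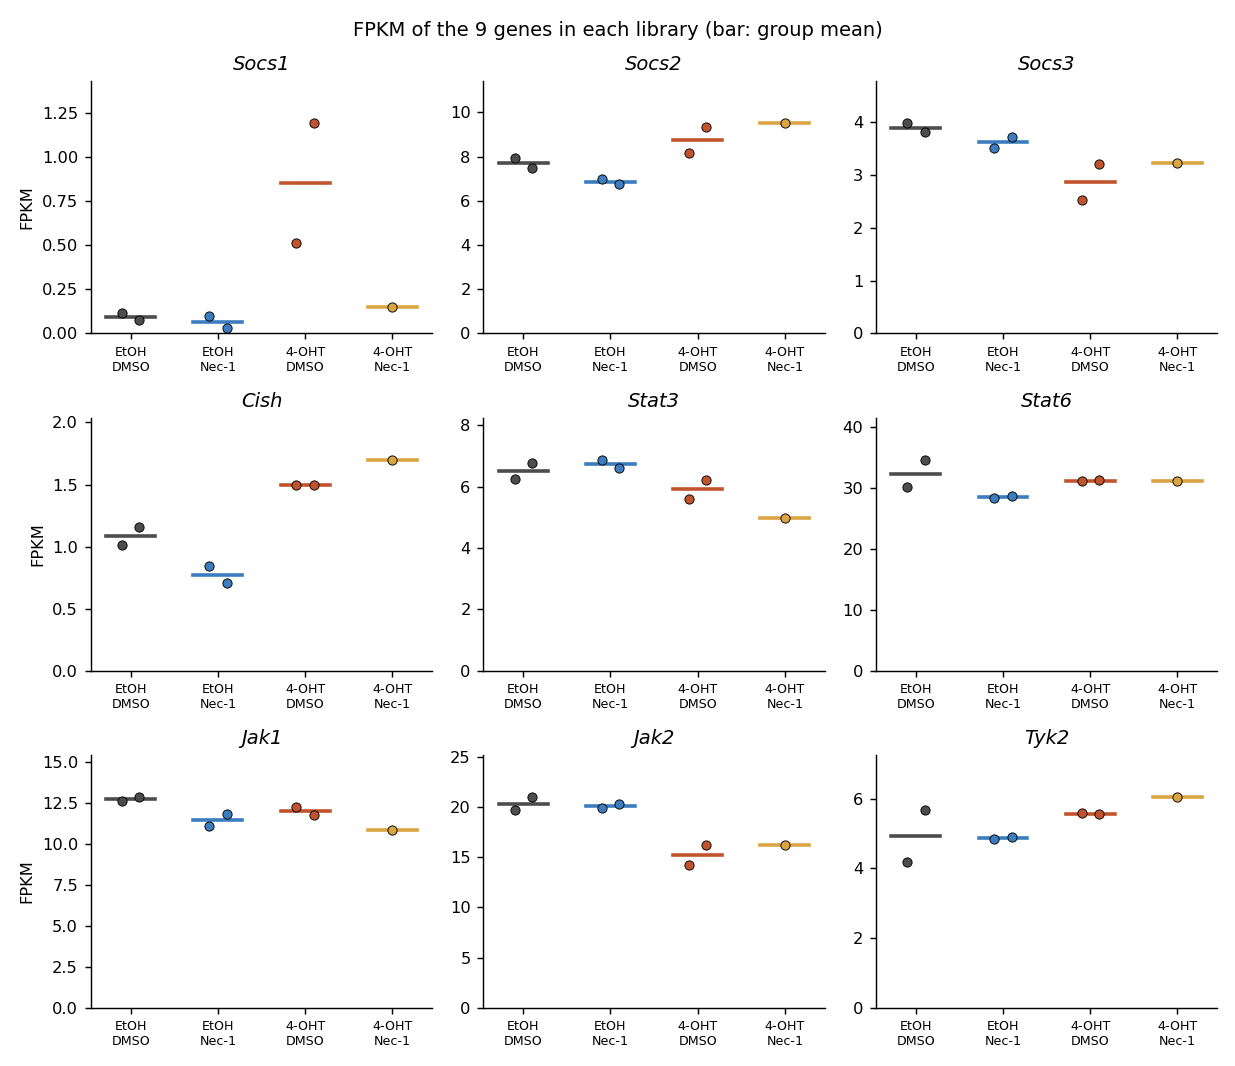
Level of each gene in FPKM (vertical axes, from 0) in the 4 groups, with 1 point per library and a bar at the group mean. *Jak2* was 14.2 and 16.2 FPKM in 4-OHT DMSO against 19.7 and 21.0 in EtOH DMSO, and *Socs1* was 0.516 and 1.19 in 4-OHT DMSO and at most 0.148 elsewhere.

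The first comparison asks how the pathway genes differ between organoids labelled 4-OHT and EtOH without inhibitor. Among the 8 genes tested, *Jak2* fell and none rose by limma at an adjusted p of 0.05, that is 1 of 8, where 41.2% of all 12702 genes tested were called (16.7% lower and 24.5% higher). The 2 libraries of each group did not overlap for 6 of the 8, 2 higher and 4 lower in 4-OHT DMSO, which was the case for 71.6% of all genes (40.7% higher and 30.8% lower). At an unadjusted p of 0.05, 2 of the 8 passed and 51% of all genes did. The labels do not say that libraries of a group are separate cultures or animals, so p-values measure the spread between these libraries, which may be technical.

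Of the inhibitors, *Socs1* (ENSMUSG00000038037, chr16:10783808-10785536), which blocks the catalytic site of JAK kinases and restrains interferon signalling, was at the edge of detection. Its FPKM was 0.117 and 0.0752 under EtOH DMSO, 0.101 and 0.0328 under EtOH Nec-1, 0.516 and 1.19 under 4-OHT DMSO and 0.148 under 4-OHT Nec-1. Both libraries labelled 4-OHT DMSO were above the other 5, and they differed from each other by more than any other pair of replicates of this gene. *Socs1* was below the filter of the main test. With no filter, over 28195 genes, its log2 fold change on the log2(FPKM + 1) scale was 0.73 (standard error 0.19, Benjamini-Hochberg adjusted p = 0.0834 by limma), and 15.9% of genes were called in that fit. The ratio of the mean FPKM was 8.89, which the added 1 FPKM compresses on the log scale.

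*Socs3* (ENSMUSG00000053113, chr11:117966079-117970336), the feedback inhibitor of gp130 and IL-22 signalling, had the lowest adjusted p of the 3 inhibitors tested. It was at 3.97 and 3.80 FPKM under EtOH DMSO, 3.50 and 3.71 under EtOH Nec-1, 2.52 and 3.21 under 4-OHT DMSO and 3.23 under 4-OHT Nec-1. The 3 libraries labelled 4-OHT were the 3 lowest, an order whose share over all genes was not computed. Between 4-OHT DMSO and EtOH DMSO the log2 fold change was -0.34 (95% interval -0.65 to -0.04, limma adjusted p = 0.0699 with Benjamini-Hochberg adjustment), so *Socs3* did not pass. It passed with each library centred on its median, where the log2 fold change was -0.50, with upper quartile scaling at -0.47, and without the second 4-OHT DMSO library at -0.47.

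*Cish* (ENSMUSG00000032578, chr9:107296659-107302784) and *Socs2* (ENSMUSG00000020027, chr10:95383903-95417321) are induced by STAT5 and limit growth hormone and prolactin signalling. *Cish* was at 1.02 and 1.16 FPKM under EtOH DMSO, 0.845 and 0.703 under EtOH Nec-1, 1.49 and 1.50 under 4-OHT DMSO and 1.70 under 4-OHT Nec-1. *Socs2* was at 7.91 and 7.50 FPKM under EtOH DMSO, 6.98 and 6.74 under EtOH Nec-1, 8.18 and 9.32 under 4-OHT DMSO and 9.51 under 4-OHT Nec-1. For both genes the order of the groups was the same, with EtOH Nec-1 lowest, then EtOH DMSO, then 4-OHT DMSO, then the 4-OHT Nec-1 library, and no library crossed into a neighbouring group. How many of all genes had this order was not computed. The log2 fold change between 4-OHT DMSO and EtOH DMSO was 0.26 for *Cish* (95% interval -0.04 to 0.56, limma adjusted p = 0.135 with Benjamini-Hochberg adjustment). It was 0.16 for *Socs2* (95% interval -0.08 to 0.40, limma adjusted p = 0.229 with Benjamini-Hochberg adjustment). Neither passed, and on the log2(FPKM + 1) scale neither interval reached a change of 1 log2 unit. Both sizes depended on the scale, since median centring and upper quartile scaling gave 0.10 and 0.16 for *Cish* and 0.0042 and 0.013 for *Socs2*. Pseudocounts of 0.1 and 0.25 gave larger values, 0.43 and 0.39 for *Cish* and 0.179 and 0.175 for *Socs2*, also not called.

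Of the kinases, *Jak2* (ENSMUSG00000024789, chr19:29251803-29313095) serves the receptors for growth hormone, prolactin, erythropoietin and interferon gamma. Its FPKM was 19.7 and 21.0 under EtOH DMSO, 19.9 and 20.3 under EtOH Nec-1, 14.2 and 16.2 under 4-OHT DMSO and 16.2 under 4-OHT Nec-1. Each of the 3 libraries labelled 4-OHT lay below each of the 4 labelled EtOH, and the share of all genes with that order was not computed. *Jak2* fell by 0.40 on the log2 scale (standard error 0.09, 95% interval -0.63 to -0.16, limma adjusted p = 0.0219 with Benjamini-Hochberg adjustment), to 0.749 times the mean FPKM of EtOH DMSO. The direction held in each of 17 limma fits, with log2 fold changes from -0.55 to -0.31, and the call held in 11 of them, with Benjamini-Hochberg adjusted p between 0.00560 and 0.0816. The fall was short of the added threshold of 1 log2 unit, and the call was also lost when only the 4 libraries of the comparison were fitted and when any 1 library of EtOH DMSO or EtOH Nec-1, or the first of 4-OHT DMSO, was left out.

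*Jak1* (ENSMUSG00000028530, chr4:101151974-101265282), the kinase shared by interferon, gp130 and common gamma chain receptors, was at 12.6 and 12.8 FPKM under EtOH DMSO, 11.1 and 11.8 under EtOH Nec-1, 12.2 and 11.7 under 4-OHT DMSO and 10.8 under 4-OHT Nec-1. *Tyk2* (ENSMUSG00000032175, chr9:21104068-21131393), the partner kinase at type I interferon, IL-10 family and IL-12 receptors, was at 4.17 and 5.67 FPKM under EtOH DMSO, 4.83 and 4.89 under EtOH Nec-1, 5.58 and 5.56 under 4-OHT DMSO and 6.04 under 4-OHT Nec-1. The first EtOH DMSO library held the lowest *Tyk2* and the second the highest outside 4-OHT Nec-1, so the spread between those controls covered the difference between groups. Log2 fold changes were -0.08 for *Jak1* (95% interval -0.28 to 0.12, Benjamini-Hochberg adjusted p = 0.460 by limma) and 0.16 for *Tyk2* (95% interval -0.18 to 0.51, adjusted p = 0.387). With median centring and upper quartile scaling they were -0.24 and -0.23 for *Jak1* and 0.0049 and 0.023 for *Tyk2*, and neither gene was called.

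Of the transcription factors, *Stat3* (ENSMUSG00000004040, chr11:100886806-100939594) was at 6.24 and 6.75 FPKM under EtOH DMSO, 6.86 and 6.59 under EtOH Nec-1, 5.60 and 6.23 under 4-OHT DMSO and 4.96 under 4-OHT Nec-1. *Stat6* (ENSMUSG00000002147, chr10:127642955-127660987) was at 30.0 and 34.5 FPKM under EtOH DMSO, 28.2 and 28.6 under EtOH Nec-1, 31.0 and 31.2 under 4-OHT DMSO and 31.0 under 4-OHT Nec-1. *Stat3* was lowest in the 4-OHT Nec-1 library, and the *Stat6* values of all 3 libraries labelled 4-OHT lay between the 2 EtOH DMSO libraries. Neither passed by limma with Benjamini-Hochberg adjustment, with log2 fold changes of -0.12 for *Stat3* (95% interval -0.36 to 0.12, adjusted p = 0.366) and -0.05 for *Stat6* (95% interval -0.27 to 0.18, adjusted p = 0.712). With median centring and upper quartile scaling they were -0.27 and -0.26 for *Stat3* and -0.20 and -0.21 for *Stat6*, also not called. These are mRNA levels and do not measure phosphorylation.

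**Figure D2:**
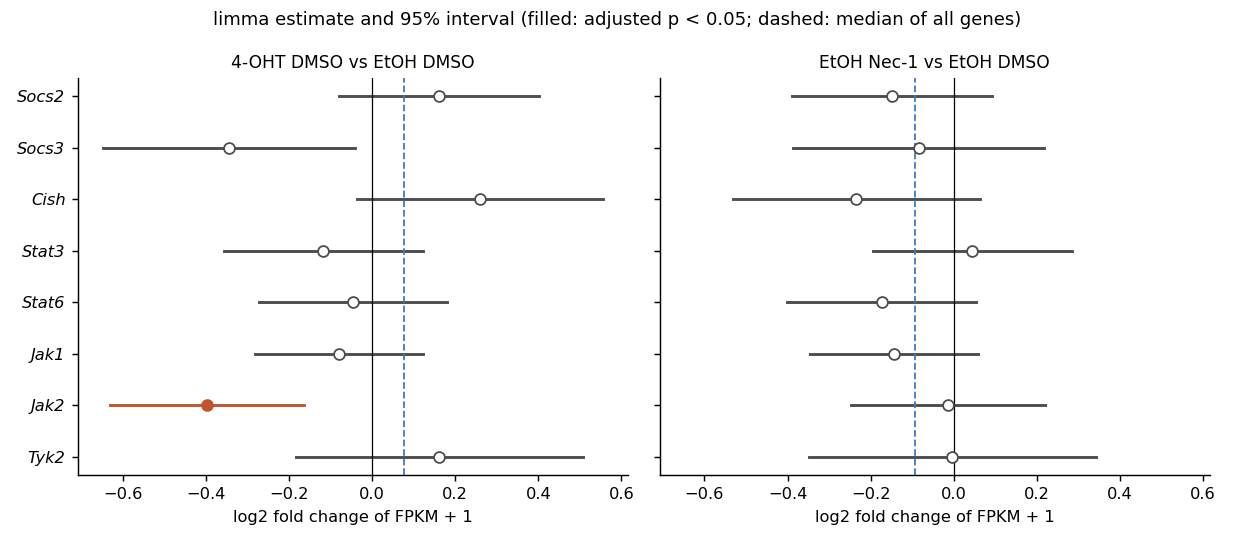
Log2 fold change (horizontal axis, log2 of FPKM + 1) with its 95% interval for the 8 genes tested, in 4-OHT DMSO against EtOH DMSO (left) and EtOH Nec-1 against EtOH DMSO (right), both sharing the EtOH DMSO libraries. Of these, *Jak2* on the left is filled, for an adjusted p under 0.05, and the dashed lines mark the medians of all genes, 0.08 and -0.09.

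The second comparison asks what Nec-1 does in organoids labelled EtOH, and it uses the same EtOH DMSO libraries. None of the 8 genes passed by limma (0 of 8, also 0 at an unadjusted p of 0.05), where 0.22% of all genes were called and 13.3% had an unadjusted p under 0.05. Benjamini-Hochberg adjusted p from limma ran from 0.457 for *Cish* to 0.995 for *Tyk2*. The 2 libraries of each group did not overlap for 5 of the 8, all lower with Nec-1 (*Socs2*, *Socs3*, *Cish*, *Stat6* and *Jak1*), where 49.6% of all genes did not overlap and 39.1% were lower. With median centring *Socs3*, *Jak2* and *Tyk2* changed sign, to 0.01, 0.08 and 0.10. The median log2 fold change over all genes was itself -0.09. *Cish* had the largest of these, at -0.23 (95% interval -0.53 to 0.06), followed by *Stat6* at -0.17 (-0.40 to 0.05), *Socs2* at -0.15 (-0.39 to 0.09) and *Jak1* at -0.14 (-0.35 to 0.06). *Jak2* was at -0.01 (-0.25 to 0.22), so no interval of these 5 genes reached 1 log2 unit on the log2(FPKM + 1) scale.

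The single 4-OHT Nec-1 library allows values but no test. Against the 2 libraries of 4-OHT DMSO, 5 of the 8 genes lay above both (*Socs2*, *Socs3*, *Cish*, *Jak2* and *Tyk2*) and 3 below both (*Stat3*, *Stat6* and *Jak1*), where 25.5% of all genes lay above and 49.3% below (74.8% in all). With median centring or upper quartile scaling 6 lay above and 1 below, where median centring put 42.3% of all genes above and 31.8% below. None of the 8 was 1 log2 unit or more away from both, as 1.15% of genes were below and 0.756% above. The difference from the mean of 4-OHT DMSO ran from -0.21 for *Stat3* to 0.14 for *Socs3*. *Jak2*, at 16.2 FPKM, and *Socs3*, at 3.23, were within 0.01 log2 units of the second 4-OHT DMSO library (0.0023 and 0.0065). *Stat6* differed from the 2 libraries by -0.00012 and -0.0079. The places of *Jak2*, *Socs3* and *Stat6* above or below both are thus close to ties. *Socs1* was 0.40 and 0.93 log2 units lower than the 2 libraries labelled 4-OHT DMSO. *Socs2*, *Socs3* and *Cish*, 3 of the 8, lay below both DMSO libraries with Nec-1 in EtOH organoids and above both in 4-OHT organoids, as did 6.48% of all genes, while 9.49% lay on opposite sides in either direction. With median centring *Cish* and *Stat6* showed this order, 2 of the 8, where 6.22% of all genes did.

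Against the 2 libraries of EtOH Nec-1, the same 4-OHT Nec-1 library was above both for 4 of the 8 and below both for 4, where 50.4% of all genes lay above and 38% below (88.3% in all). With median centring or upper quartile scaling 3 lay above and 5 below, where median centring put 39% of all genes above and 49.4% below. On the log2(FPKM + 1) scale none was 1 log2 unit or more away from both, as 1.82% of genes were below and 4.09% above. *Cish* differed most, by 0.60 log2 units (0.55 and 0.66 from the 2 libraries), a ratio of 2.19 in FPKM. Its FPKM was 1.70 against 0.845 and 0.703 under EtOH Nec-1, a difference that the added 1 FPKM compresses on the log scale. *Socs2* was 0.42 higher, *Tyk2* 0.26 higher and *Stat6* 0.12 higher. *Stat3* was lower by a difference of -0.37, *Jak2* of -0.29, *Socs3* of -0.12 and *Jak1* of -0.07.

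Around these 9 genes, some genes in the rest of the pathway had larger differences. The lists used here were chosen with earlier results of these data known, so their counts are a description. List counts from here on compare 4-OHT DMSO with EtOH DMSO by limma with Benjamini-Hochberg adjustment, to be read against the 24.5% of all genes called higher and 16.7% called lower. Counts with median centring are to be read against that fit's own shares, 17.4% higher and 25.1% lower. Of the 4 other SOCS genes, 3 rose and none fell, with a median log2 fold change of 0.54 where the median of all genes was 0.08. *Socs5* was at 1.07 and 1.25 FPKM in EtOH DMSO and at 2.64 and 2.65 in 4-OHT DMSO (log2 fold change 0.75). *Socs6* was at 3.88 and 3.86 FPKM in EtOH DMSO and at 7.25 and 16.3 in 4-OHT DMSO, libraries far apart from each other (log2 fold change 1.29). Over 17 fits it ran from 0.76 to 1.83, and its call held in 11 of them and was lost without any 1 library of EtOH DMSO or EtOH Nec-1. *Socs4* rose by 0.33, a call that was lost with both scalings and without any 1 library of EtOH Nec-1 or 4-OHT DMSO or the first of EtOH DMSO (0.17 to 0.39 over 17 fits, called in 9). *Stat2*, which acts in the type I interferon response, rose from 2.42 and 4.86 FPKM in EtOH DMSO to 22.7 and 19.0 in 4-OHT DMSO (log2 fold change 2.28). *Stat4*, a lymphoid STAT, did not exceed 0.016 FPKM in any library.

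Other negative regulators were 12 genes, of which 11 were tested, 4 rose and 1 fell, with a median of 0.15. *Usp18*, which shuts off the type I interferon receptor and is itself interferon-induced, was listed at 0.0180 and 0 FPKM in EtOH DMSO and at 14.4 and 20.7 in 4-OHT DMSO (log2 fold change 4.18). It was at most 0.178 FPKM in libraries labelled EtOH, so it passed the filter only through libraries labelled 4-OHT. The phosphatases *Ptpn11* and *Ptpn1* rose by 0.47 and 0.42, and the JAK phosphatase *Ptpn2* fell by 0.50. The calls of *Ptpn11* and *Ptpn1* were lost with both scalings and without the first library of EtOH DMSO or of 4-OHT DMSO, those of *Ptpn11* also without either EtOH Nec-1 library and of *Ptpn1* without the second of EtOH DMSO or 4-OHT DMSO, with log2 fold changes of 0.31 to 0.58 and 0.26 to 0.51 and calls in 8 and 9 of 17 fits. With each library centred on its median the list had 1 gene higher and 3 lower of 11, beside the 17.4% and 25.1% of all genes in that fit. Of the 4 partners that join the SOCS box to a ubiquitin ligase, *Elob* and *Rnf7* rose, by 0.52 and 0.42, and none was called with median centring. Both calls were also lost without the second library of EtOH DMSO or of 4-OHT DMSO, and that of *Rnf7* without the first of 4-OHT DMSO or either of EtOH Nec-1 (0.36 to 0.64 for *Elob* and 0.26 to 0.55 for *Rnf7* over 17 fits, called in 12 and 7). Median centring moved the all-gene median from 0.08 to -0.08 on the log2 scale, and higher genes made up 41.0% of calls after it and 59.5% before, so small differences here depend on the scale.

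Receptor genes were called in both directions. Of 26 receptor genes 14 were tested, of which 6 rose and 3 fell, with a median of 0.29, and with median centring 4 rose and 3 fell, beside the same 17.4% and 25.1%. *Prlr*, the prolactin receptor that signals through JAK2, was at 2.60 and 2.69 FPKM under EtOH DMSO, 2.65 and 2.66 under EtOH Nec-1, 0.191 and 0.164 under 4-OHT DMSO and 0.343 under 4-OHT Nec-1. *Ghr*, the growth hormone receptor, was at 2.76 and 2.85 FPKM under EtOH DMSO, 2.72 and 2.67 under EtOH Nec-1, 1.33 and 0.898 under 4-OHT DMSO and 1.57 under 4-OHT Nec-1. For both, the 3 libraries labelled 4-OHT lay below all 4 labelled EtOH, again without a computed share over all genes. *Prlr* passed the filter only through libraries labelled EtOH. *Prlr* fell by 1.63 and *Ghr* by 0.85 on the log2 scale (Benjamini-Hochberg adjusted p = 0.000596 and 0.00613 by limma). The chains of the interferon gamma receptor were called in opposite directions, *Ifngr2* falling by 0.56 and *Ifngr1* rising by 0.97 (Benjamini-Hochberg adjusted p = 0.00455 and 0.0113 by limma). The IL-4 and IL-13 receptor chains *Il4ra* and *Il13ra1* rose by 0.86 and 1.21, and the type I interferon receptor chain *Ifnar2* by 0.79. Of 19 cytokines 2 were tested and 1 rose, *Lif*, a gp130 ligand, from 1.94 and 2.08 to 8.56 and 8.33 FPKM. *Il6*, *Il22* and *Il13* were listed at 0 in all 7 libraries.

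Among response genes, 10 of the 15 genes of the STAT3 list were tested. Of these, 7 rose and none fell, with a median of 0.89 (6 with median centring). *Fut2*, among those that rose, was at most 0.518 FPKM in libraries labelled EtOH, so it passed the filter only through libraries labelled 4-OHT. *Duoxa2*, the maturation factor of an epithelial peroxide-producing oxidase, rose by 3.50, the antimicrobial lectin *Reg3g* by 1.99 and *Junb* by 1.16. *Pim1*, *Bcl3* and *Saa2* were tested and not called. The untested *Saa1*, *Lcn2*, *S100a8*, *S100a9* and *Muc1* were below 1 FPKM in every library. Several genes of this list are also induced by other factors. In EtOH Nec-1 against EtOH DMSO no gene of any pathway list was called by limma with Benjamini-Hochberg adjustment. Only 0.22% of all genes were called in that comparison, so the absence of calls does not show absence of change. Within the STAT3 list the largest log2 fold changes there were -1.08 for *Reg3b*, 1.07 for *Saa2* and -0.91 for *Reg3g*. *Saa2* was at most 0.894 FPKM outside the EtOH Nec-1 libraries, so it passed the filter only through them. In the 4-OHT Nec-1 library, *Stat2* at 10.4 FPKM and *Usp18* at 1.22 lay below both libraries labelled 4-OHT DMSO. Both genes lay above the EtOH Nec-1 libraries, *Stat2* by 1.53 and 1.67 log2 units. *Socs1* at 0.148 also lay between, but near the floor and only 0.06 and 0.15 log2 units above the EtOH Nec-1 libraries. *Prlr* and *Ghr* lay above both 4-OHT DMSO libraries and below both EtOH Nec-1 libraries. Other genes of these lists did not lie between. *Socs4* and *Reg3g* lay above the libraries of both groups, *Reg3g* by only 0.003 log2 units over the first of 4-OHT DMSO. *Pim1* lay below the libraries of both groups. The share of all genes that lay between these groups was not computed.

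**Figure D3:**
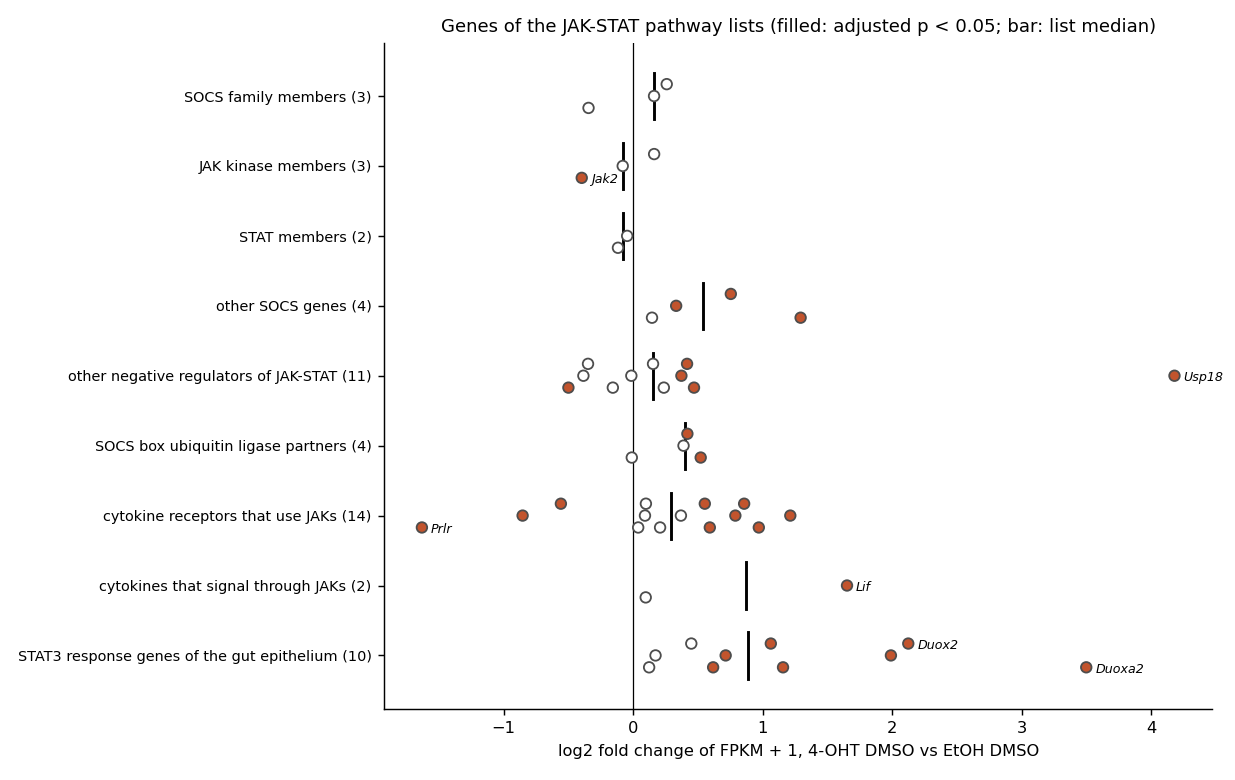
Log2 fold change (horizontal axis, log2 of FPKM + 1) between 4-OHT DMSO and EtOH DMSO for each tested gene of the 9 (top 3 lines) and of other pathway lists, with the number tested in brackets, a bar at each list's median and filled points for an adjusted p under 0.05. *Jak2* is the only filled point among the 8, at -0.40, and 7 of the 10 tested STAT3 response genes are filled, up to 3.50. Among the filled, *Fut2* and *Usp18* passed the filter only through libraries labelled 4-OHT and *Prlr* only through libraries labelled EtOH. All lists were chosen with earlier results of these data known.

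**Figure D4:**
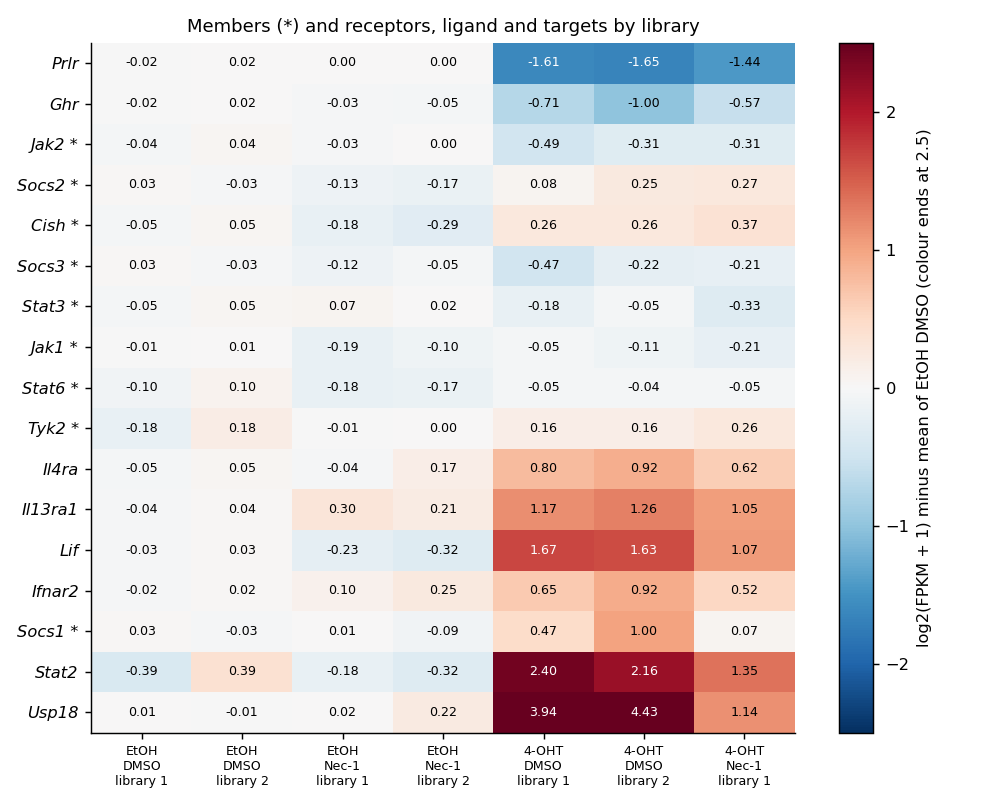
Difference of log2(FPKM + 1) in each library (columns) from the mean of the EtOH DMSO libraries, for the 9 genes (starred) and for receptors, a ligand and targets named in the text, with the value in each cell and a colour scale that ends at 2.5. The starred rows other than *Socs1* stay within 0.5 in every library, *Prlr* reaches -1.65 and *Usp18* 4.43.

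For each of the 9 genes, the 3 genes of most similar profile were found by Pearson correlation of log2(FPKM + 1) over the 7 libraries. This is a description over libraries that share groups and carries no p. *Jak2* was followed most closely by *Acad12* (r = 0.995), *Zfp942* (0.994) and *Arhgap18* (0.993), and *Socs3* by *Sec22b* (0.992), *Zfp809* (0.992) and *Tmem252* (0.987). *Cish* was closest to *AL732309.1* (0.991) and *Irf2bpl* (0.989), and *Socs2* to *4930461G14Rik* (0.989), *Abhd11* (0.985) and *Gm30262* (0.981). *Jak1* was closest to *Nek2* (0.994), *Tyk2* to *Spg11* (0.995), *Stat3* to *Nkap* (0.972) and *Stat6* to *Man2a1* (0.968). *Socs1* was closest to *Gm8991* (0.992) and *Tff1* (0.990). *Tff1* was at 6.85 and 80.6 FPKM under 4-OHT DMSO and at most 1.12 in the others, with the second of those libraries far above all the rest. None of the 9 genes appeared in the closest 3 of another.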

How the data were processed

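RNA-seq of 7 organoid libraries in 4 groups was used, grouped by the labels, and its 2 CUT&Tag samples were not analysed here. The authors deposited FPKM per Ensembl gene, and the submitters' processing notes name HISAT2 2.1.0, StringTie 1.3.3b and mm10. In the table of 3 libraries, 2 columns repeated values of other tables to within rounding and were not used. No sample was left unmapped. FPKM are scaled to the library total, so a few abundant genes can shift all others, and fragment counts were not used here.

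FPKM were tested as log2(FPKM + 1) with limma 3.58.1 (mean-variance trend, R 4.3.3) for the 12702 genes that reached 1 FPKM in 2 or more libraries. The fit used all 7 libraries with 1 mean per group and 3 residual degrees of freedom, two-sided tests, Benjamini-Hochberg adjustment and a threshold of 0.05. With 1 library, 4-OHT Nec-1 was set against each library of the other group without a test. The fit was tested on simulated data with independent noise, in which 200 of 12702 genes changed by 1 or 2 log2 units. There 4.23% of calls were false. Changes under 1 log2 unit, such as that of *Jak2*, and a share of changed genes as large as that called here were not simulated. Python 3.11.15, pandas 2.3.3, numpy 2.4.6 and matplotlib 3.10.9 were used for the rest. Symbols and coordinates came from RefSeq tables of GRCm38.p6.

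The 9 genes and all lists were chosen with earlier results of these data known. Named were the 9 genes, *Mettl3*, up to 3 genes of lowest adjusted p per direction and list, defining list genes below the filter, and the 3 closest profiles per gene. *Cd68*, *Ptprc*, *Ifngr1*, *Fut2*, *Pim1*, *Bcl3* and *Saa2* were named after their values were seen. Alternatives were pseudocounts of 0.1 and 0.25, median centring, upper quartile scaling, no trend, no filter, 1 FPKM in every library, only the 4 libraries of a comparison, an added threshold of 1 log2 unit, the replicate number as a block, and each library left out in turn. Some items are not reported here.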

Additional observations from a re-analysis of the deposited data

Results flagged for a closer look

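For 3 genes the direction with Nec-1 was opposite in the 2 backgrounds, with every Nec-1 library on one side of both DMSO libraries in organoids labelled EtOH and on the other side in organoids labelled 4-OHT. These 3 of the 8 tested genes were lower with Nec-1 in EtOH and higher in 4-OHT organoids, as were 6.48% of all 12702 genes. The log2 difference was -0.15 in EtOH and 0.11 in 4-OHT organoids for *Socs2*, -0.08 (-0.0844) and 0.14 for *Socs3*, and -0.23 and 0.11 for *Cish*. Against the second 4-OHT DMSO library alone, the 4-OHT Nec-1 library was higher by 0.026 for *Socs2*, 0.0065 for *Socs3* and 0.11 for *Cish*. The place of *Socs2* and *Socs3* above both libraries thus rests on small margins. The difference between the backgrounds was not tested, because 4-OHT Nec-1 has 1 library. For *Socs3* the EtOH value changed sign under both scalings, to 0.01 with median centring. With median centring the pattern was present for *Cish* and *Stat6* of the 8 and for 6.22% of all genes, and no longer for *Socs2* or *Socs3*.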

How the results depend on the processing

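Between 4-OHT DMSO and EtOH DMSO, the count of called genes among the 8 went from 1 to 0 with the threshold of 1 log2 unit or with only the 4 libraries of the comparison, and to 2 with median centring or upper quartile scaling, which added *Socs3*. With each library left out in turn it ranged from 0 to 2. Over all genes, the count went from 5237 to 1319 with the fold threshold. In EtOH Nec-1 against EtOH DMSO it was 28, and 43 with upper quartile scaling, 8 with no filter, 79 with only the 4 libraries and 9 to 79 with 1 library left out, the 79 without either 4-OHT DMSO library. None of the 8 was called there in any setting. Deviations of same-numbered libraries correlated at -0.0402, 0.00646 and -0.012 across genes, so no shared replicate effect was seen. This cannot show whether same-numbered libraries came from the same culture or animal, which the labels do not say. The fit with the replicate block called 4697 and 19 genes and 1 and 0 of the 8. Direction changed only for values not called in that comparison, and the cause was not tested. Median centring gave log2 fold changes in EtOH Nec-1 against EtOH DMSO of 0.015 for *Socs3*, 0.084 for *Jak2* and 0.095 for *Tyk2*, and upper quartile scaling gave 0.00056, 0.088 and 0.087. With 1 library left out, *Stat6* ran from -0.14 to 0.050 (positive without EtOH DMSO library 2) and *Tyk2* from -0.022 (without EtOH DMSO library 1) to 0.35 between 4-OHT DMSO and EtOH DMSO. Between EtOH Nec-1 and EtOH DMSO, *Stat3* ran from -0.0051 (without EtOH DMSO library 1) to 0.093, *Jak2* from -0.058 to 0.029 and *Tyk2* from -0.19 to 0.18, with positive values for *Jak2* and *Tyk2* without EtOH DMSO library 2 and without EtOH Nec-1 library 1. In both comparisons of the 4-OHT Nec-1 library, 7 or 8 of the 8 lay outside the reference libraries in every alternative run. In the main setting 74.8% of all genes lay outside both 4-OHT DMSO libraries and 88.3% outside both EtOH Nec-1 libraries, so such positions were common. Depth per gene is unknown, so no counting error could be given for any value.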
